A study of Mus musculus with 12 samples.

Results

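The genes described here were the imprinted genes of fetal growth that lie outside the Dlk1-Dio3 locus, namely H19, Igf2, Peg3, Plagl1, Mest, Cdkn1c and Grb10. A probe set, the group of oligonucleotides that reads one transcript on the array, was taken when its annotated gene symbol was exactly one of these 7. This gave 15 of the 45101 probe sets on the array, for 6 of the 7 genes: 5 for Peg3, 3 each for Plagl1 and Grb10, 2 for Igf2, and 1 each for Mest and Cdkn1c. H19 had none of its own. The single probe set that reads it, 1448194_a_at, is annotated to Mir675 and H19 together, so its values are given beside the 15 and are not counted with them.

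Liver RNA of 12 male mice on a 129J background was hybridized to 12 Affymetrix Mouse Genome 430 2.0 arrays, 3 for each of 4 labels. These were hepatic tumors of Iqgap2-/- mice at 24 months (KO 24 months tumor), livers of Iqgap2-/- mice at 6 months (KO 6 months), and livers of wild-type mice at 24 months (WT 24 months) and 6 months (WT 6 months). The knockout is constitutive, so every cell type of the KO animals carries it, and animals of both genotypes were on a regular diet with no treatment. Values are log2 intensities after RMA, where a difference of 1 is a doubling.

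The deleted gene did not follow the labels. Iqgap2, a scaffold protein of the IQGAP family, had values of 12.15, 12.05 and 12.15 (log2 intensity of 1433885_at) on the arrays labelled KO 24 months tumor, 8.12, 8.68 and 8.07 on KO 6 months, 12.28, 12.30 and 11.92 on WT 24 months, and 8.38, 8.24 and 8.33 on WT 6 months. The arrays labelled KO 24 months tumor thus lay at the level of those labelled WT 24 months, and the arrays labelled WT 6 months at that of KO 6 months. The other Iqgap2 probe set, 1459894_at, fell into the same 2 levels, with means of 8.82 and 7.36 on KO 24 months tumor and KO 6 months, and of 8.81 and 7.71 on WT 24 months and WT 6 months. Afp, the alpha-fetoprotein of fetal liver and of many liver tumors, averaged 6.21 ± 0.09 on KO 24 months tumor, 6.74 ± 0.05 on KO 6 months, 6.55 ± 0.94 on WT 24 months and 12.79 ± 0.66 on WT 6 months (log2 intensity of 1416646_at, SD, n = 3 each). Both WT 6 months and KO 24 months tumor are therefore labels in doubt, and each group below is named as the arrays labelled so. Every direction of genotype or age that involves either label depends on it. Hepatocyte markers were bright on every array, with a mean log2 intensity over 9 genes of 14.50 to 14.54 on KO 24 months tumor, 14.47 to 14.49 on KO 6 months, 14.44 to 14.56 on WT 24 months and 13.88 to 14.23 on WT 6 months. Of these, 2 were lower on WT 6 months than on KO 6 months and on WT 24 months, Apoc3 and, by more, Cps1, the first enzyme of the urea cycle. Cps1 had log2 intensities of 14.28, 14.25 and 14.33 on KO 24 months tumor, 14.28, 14.23 and 14.29 on KO 6 months, 14.34, 14.43 and 14.11 on WT 24 months, and 11.49, 12.45 and 10.10 on WT 6 months (log2 differences of 2.92 for KO 6 months minus WT 6 months, limma adjusted p = 9.04e-04, and 2.95 for WT 24 months minus WT 6 months, adjusted p = 0.00101).

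Imprinted genes are expressed from the maternal or the paternal copy only, according to DNA methylation set in the germ line. Many of them act on growth before birth: among the genes here, Igf2, Peg3, Plagl1 and Mest are expressed from the paternal copy, and H19, Cdkn1c and, in most tissues, Grb10 from the maternal one. In mouse liver H19, Igf2 and several others are high in the fetus and are turned down after birth, and some return in liver tumors.

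Of the genes, 4 lie on chromosome 7. In the RefSeq annotation of GRCm38.p6, H19 occupies chr7:142575530-142578146 and Igf2 chr7:142650768-142666816, with 72621 bases between them, and Cdkn1c lies at chr7:143458339-143461059. Peg3 lies at chr7:6703892-6730462. The others are Mest at chr6:30733506-30748466, Plagl1 at chr10:13090832-13131694 and Grb10 at chr11:11930499-12037428. A microRNA lies inside 3 of these genes: Mir675 in H19, Mir483 in Igf2 and Mir335 in Mest. Their mature sequences are given because the H19 probe set is annotated to Mir675 as well. The arrays read host transcripts, and no level of a mature microRNA was measured. In each sequence the capitals mark the seed, bases 2 to 8, by which a microRNA pairs with its targets, and the 6 arms have 6 different seeds.
mmu-miR-675-5p: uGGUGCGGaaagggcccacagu
mmu-miR-675-3p: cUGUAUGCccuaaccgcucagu
mmu-miR-483-5p: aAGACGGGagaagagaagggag
mmu-miR-483-3p: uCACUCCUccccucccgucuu
mmu-miR-335-5p: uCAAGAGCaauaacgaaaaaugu
mmu-miR-335-3p: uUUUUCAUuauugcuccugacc

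PLAGL1 binds a GC-rich site whose core is GGGGCCCC. RefSeq promoters (GRCm38.p6, 250 bases before to 50 after a transcript start) were found for 5 of the genes, 11 promoters in all, and were searched for these letters, which read the same on both strands. The site was present in 1 of the 11, that of Peg3, and in 354 of all 32851 promoters (1.08%). The Peg3 promoter at chr7:6730370-6730669, minus strand, is shown because Peg3 and Plagl1 were both low on the arrays labelled WT 6 months (below). It spans the 96 bases between Peg3 and Usp29, and the capitals mark the match. The match begins at position -201 from the transcript start of this promoter, which lies inside the Peg3 interval given above. It falls beyond the 96 bases, within the annotated Usp29 (from chr7:6730559).
Peg3 promoter: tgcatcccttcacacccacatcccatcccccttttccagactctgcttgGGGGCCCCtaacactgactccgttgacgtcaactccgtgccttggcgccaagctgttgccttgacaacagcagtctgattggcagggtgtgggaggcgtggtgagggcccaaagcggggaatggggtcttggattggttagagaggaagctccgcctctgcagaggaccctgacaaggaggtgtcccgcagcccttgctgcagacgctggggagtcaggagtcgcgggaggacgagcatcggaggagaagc
The match is a description of the letters and was not tested as a binding site.

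Across the probe sets, the arrays labelled WT 6 months differed from the other labels. With the mean of the 3 other groups as the comparison, 6 of the 15 probe sets passed an adjusted p of 0.05 in limma (Benjamini-Hochberg over 45037 probe sets), 2 of them higher and 4 lower on WT 6 months, against 15.8% of all probe sets (8.20% higher and 7.57% lower). This comparison was chosen after Iqgap2 and Afp in these same data had set WT 6 months apart from its label, so its count is a description. In KO 6 months against WT 6 months, 5 of the 15 passed (33.3%), 3 higher and 2 lower, against 12.1% of all probe sets (6.08% higher and 6.03% lower). In WT 24 months against WT 6 months 6 of the 15 passed (40%), 4 higher and 2 lower, against 8.76% (3.80% higher and 4.96% lower). Without WT 6 months there was no such call. For the difference of KO 24 months tumor from WT 24 months 0 of the 15 passed in limma (3 at an unadjusted p under 0.05), against 0.238% of all probe sets, and for its difference from KO 6 months 0 of the 15 passed (0 at an unadjusted p under 0.05), against 0.0200%. The median log2 difference of the 15 probe sets was 0.10 for KO 24 months tumor minus WT 24 months, 0.24 for KO 6 months minus WT 6 months, 0.01 for KO 24 months tumor minus KO 6 months and 0.15 for WT 24 months minus WT 6 months, beside medians of 0.05, 0.04, 0.00 and 0.00 over all probe sets. Some labels had no overlap between their arrays. WT 6 months lay apart from all other arrays for 6 of the 15 probe sets, against 11.7% of all. KO 6 months lay apart from WT 6 months for 10 (33.7%). WT 24 months lay apart from WT 6 months for 7 (22.3%). KO 24 months tumor lay apart from WT 24 months for 3 (19.7%) and from KO 6 months for 2 (14.6%). No such share was computed for all KO against all WT arrays or for 4 labels apart. Comparisons with a label in common share those arrays, and probe sets of one gene share their transcript, so the counts are not independent of each other. Nothing in the sources used here gives a batch.

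**Figure D1:**
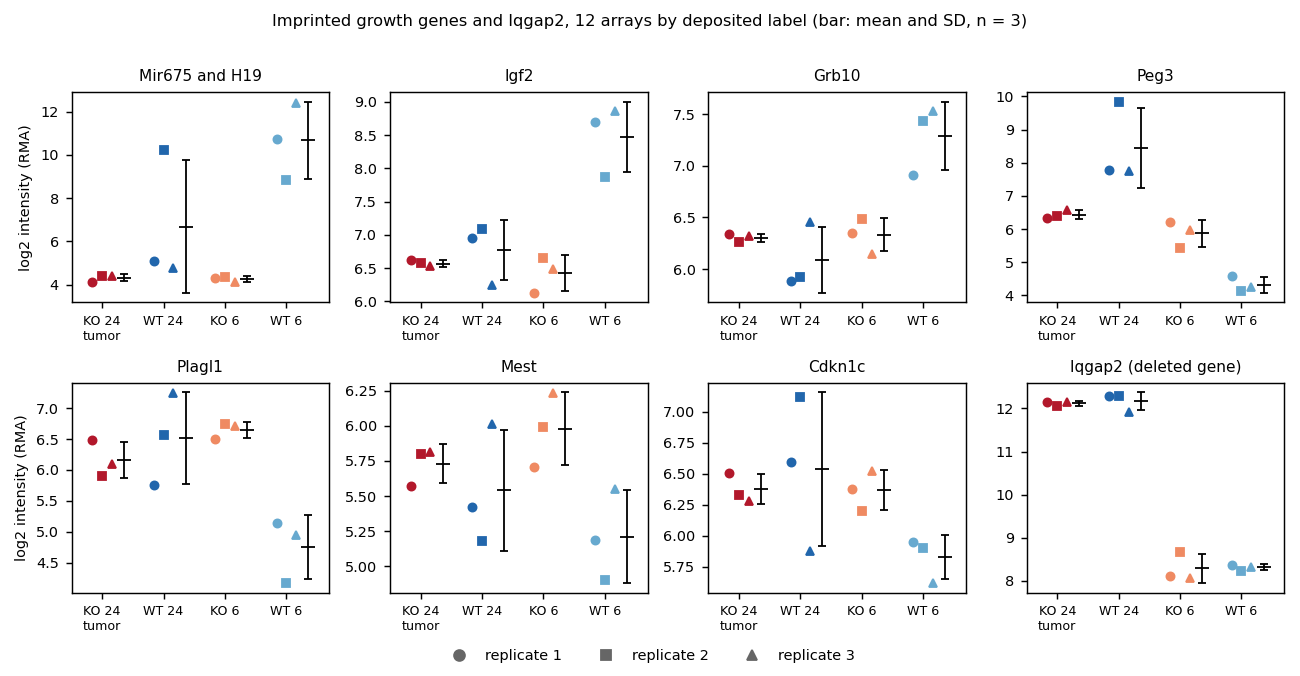
Log2 intensity (RMA) of 1 probe set per gene on each of the 12 arrays, by deposited label, with the mean and SD of the 3 arrays of a label beside the points. Mir675 and H19, Igf2 and Grb10 were highest on WT 6 months, Peg3, Plagl1, Mest and Cdkn1c had their lowest mean there, and Iqgap2 was near 12 on both 24-month labels.

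The probe set of Mir675 and H19 had the widest range. H19 is a long non-coding RNA, abundant in fetal liver, and the host of miR-675. On the arrays labelled KO 24 months tumor its log2 intensities were 4.15, 4.41 and 4.42, on KO 6 months 4.33, 4.36 and 4.13, on WT 24 months 5.08, 10.22 and 4.77, and on WT 6 months 10.75, 8.85 and 12.40. All 6 KO-labelled arrays thus lay below all 6 WT-labelled ones, and among WT 24 months replicate 2 lay within the range of WT 6 months. KO 6 months was lower than WT 6 months (log2 difference -6.40 ± 1.21, SE, limma adjusted p = 0.00549, 3 against 3 arrays). The difference was -5.53 without WT 6 months replicate 3 and -7.31 without WT 6 months replicate 2, and passed in both. The values used here come without a background level or a detection call. For this and other probe sets, no fold is therefore given where the mean of a label lay below the median of all values (5.43). The log2 difference between WT 24 months and WT 6 months was -3.98 ± 1.21 and missed the threshold (adjusted p = 0.0680). It passed when WT 24 months replicate 2 (-5.75, adjusted p = 8.02e-04) or WT 6 months replicate 2 (-4.89, adjusted p = 0.0453) was left out. KO 24 months tumor and WT 24 months differed by -2.36 ± 1.21 (adjusted p = 0.378), and KO 24 months tumor and KO 6 months by 0.06 (95% confidence interval -2.60 to 2.71). These SE and intervals use a spread shared by all 4 labels. The SD was 0.15 on KO 24 months tumor and 0.13 on KO 6 months. It was 3.06 on WT 24 months and 1.78 on WT 6 months, so the interval between the KO labels mostly reflects the WT-labelled arrays.

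Igf2, the fetal growth factor that signals through the IGF1 and insulin receptors, was also highest on WT 6 months, at a smaller scale. Its other labels overlapped each other, without a split of KO-labelled from WT-labelled arrays. Its bright probe set, 1448152_at, had log2 intensities of 6.62, 6.58 and 6.53 on KO 24 months tumor, 6.13, 6.66 and 6.49 on KO 6 months, 6.96, 7.09 and 6.25 on WT 24 months, and 8.70, 7.87 and 8.86 on WT 6 months. The lowest array of WT 6 months was above every other array. Igf2 was 4.14-fold lower on KO 6 months than on WT 6 months (log2 difference -2.05 ± 0.27, SE, limma adjusted p = 5.05e-04), and 3.27-fold lower on WT 24 months than on WT 6 months (-1.71 ± 0.27, adjusted p = 0.00191). Between KO 24 months tumor and WT 24 months the log2 difference was -0.19, with a 95% confidence interval of -0.77 to 0.39. WT 24 months replicate 2, which was high for the H19 probe set, had 7.09 for Igf2 and did not stand apart from replicate 1. The other Igf2 probe set, 1415931_at, was dim, with means of 4.55 on KO 24 months tumor, 4.57 on KO 6 months, 4.41 on WT 24 months and 4.51 on WT 6 months, below the median of all values, and passed in no comparison.

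Grb10 encodes an adaptor that binds the insulin and IGF1 receptors and limits their signal. Its probe set 1425458_a_at had log2 intensities of 6.34, 6.26 and 6.32 on KO 24 months tumor, 6.35, 6.48 and 6.15 on KO 6 months, 5.88, 5.92 and 6.46 on WT 24 months, and 6.91, 7.43 and 7.53 on WT 6 months. As for Igf2, all 3 arrays labelled WT 6 months were above all others, where 11.7% of all probe sets had WT 6 months apart in either direction. Grb10 was 1.95-fold lower on KO 6 months than on WT 6 months (log2 difference -0.96 ± 0.18, SE, limma adjusted p = 0.00569) and 2.30-fold lower on WT 24 months than on WT 6 months (-1.20 ± 0.18, adjusted p = 0.00172). The dim probe sets 1425457_a_at and 1430164_a_at had group means between 4.26 and 4.74 and passed in none of the comparisons. For 1430164_a_at, the log2 difference of -0.48 between WT 24 months and WT 6 months passed when either WT 24 months replicate 2 or WT 6 months replicate 2 was left out, with a lowest adjusted p of 0.0302.

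Peg3, a zinc finger transcription factor expressed from the paternal copy, ran the other way, with wider differences between the WT labels than any other member. On 1433924_at its log2 intensities were 6.34, 6.39 and 6.59 on KO 24 months tumor, 6.21, 5.42 and 5.98 on KO 6 months, 7.77, 9.84 and 7.74 on WT 24 months, and 4.59, 4.13 and 4.25 on WT 6 months. The 4 labels did not overlap, in the order WT 24 months, KO 24 months tumor, KO 6 months and WT 6 months from high to low. Peg3 was higher on the arrays labelled WT 24 months than on those labelled WT 6 months (log2 difference 4.13 ± 0.45, SE, limma adjusted p = 1.74e-04), and higher on those labelled KO 6 months than on those labelled WT 6 months (1.55 ± 0.45, adjusted p = 0.0447). The neighbours KO 24 months tumor and KO 6 months differed by 0.57 ± 0.45 (adjusted p = 0.899). This left KO 24 months tumor against WT 24 months, a log2 difference of -2.01 ± 0.45 with an adjusted p of 0.0927.

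Some of these calls turned on single arrays. The difference between KO 24 months tumor and WT 24 months passed without WT 24 months replicate 2, at a smaller size (-1.32, adjusted p = 0.0397), and without WT 24 months replicate 1 (-2.35, adjusted p = 0.0314). The call between KO 6 months and WT 6 months held without any 1 array labelled WT 24 months and was lost without any 1 of the other 9 arrays, with a highest adjusted p of 0.140 and log2 differences of 1.38 to 1.78. Arrays of the 24-month labels are not part of this difference and bear only on its adjusted p, through a spread shared by all 12 arrays. With only the groups compared, it was 1.55 ± 0.22 (SE, limma adjusted p = 0.00411). The call between WT 24 months and WT 6 months held in all 12 repeats, the smallest difference being that without WT 24 months replicate 2 (3.43).

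The Peg3 probe sets did not all follow this pattern. On 1417355_at the log2 intensities were 6.99, 6.89 and 7.20 on KO 24 months tumor, 7.01, 6.39 and 6.26 on KO 6 months, 7.74, 9.52 and 7.63 on WT 24 months and 5.57, 5.32 and 5.89 on WT 6 months. On 1417356_at they were 5.18, 4.96 and 5.03 on KO 24 months tumor, 5.09, 4.47 and 4.97 on KO 6 months, 5.56, 7.65 and 5.28 on WT 24 months and 3.98, 3.89 and 4.15 on WT 6 months. Both were higher on WT 24 months than on WT 6 months, by 2.71 ± 0.41 (SE, limma adjusted p = 0.00160) and 2.16 ± 0.47 (adjusted p = 0.0136) on the log2 scale, and both peaked on WT 24 months replicate 2. Without that array the differences were 2.10 (adjusted p = 2.82e-04) and 1.41 (adjusted p = 9.26e-04), and the highest adjusted p with any array left out was 0.00785 for 1417355_at and 0.0450 for 1417356_at. For KO 6 months against WT 6 months their log2 differences of 0.96 and 0.84 did not pass with all arrays and passed without WT 24 months replicate 2 (adjusted p = 0.0101 and 0.00671). That array is not part of these differences and bears only on the spread, which the fit shares over all 12 arrays. With only the groups compared, both passed in limma (adjusted p = 0.0307 and 0.0199). The remaining 1447731_at and 1447732_x_at stayed between 3.13 and 3.55 on all 12 arrays, and passed in no comparison. Usp29, the paternally expressed gene that begins beside the Peg3 start, was dim, with means of 4.40 on KO 24 months tumor, 4.44 on KO 6 months, 4.05 on WT 24 months and 4.11 on WT 6 months.

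**Figure D2:**
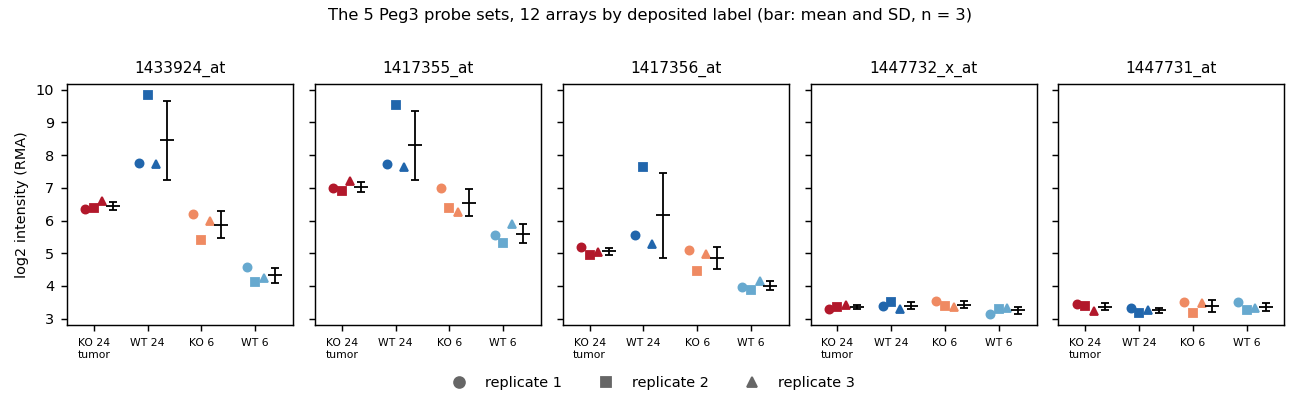
Log2 intensity (RMA) of the 5 Peg3 probe sets on each of the 12 arrays, by deposited label, on one scale, with the mean and SD of the 3 arrays of a label. On 1433924_at, 1417355_at and 1417356_at WT 24 months replicate 2 was highest (9.84, 9.52 and 7.65) and the arrays labelled WT 6 months were lowest, while 1447731_at and 1447732_x_at stayed near the bottom of the scale.

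Plagl1, also called Zac1, is a zinc finger transcription factor that induces cell cycle arrest. Probe set 1426208_x_at had log2 intensities of 6.48, 5.91 and 6.09 on KO 24 months tumor, 6.50, 6.75 and 6.71 on KO 6 months, 5.76, 6.56 and 7.24 on WT 24 months, and 5.14, 4.17 and 4.95 on WT 6 months. All 9 arrays of the other labels were above WT 6 months. Plagl1 was higher on KO 6 months than on WT 6 months (log2 difference 1.90 ± 0.33, SE, limma adjusted p = 0.00353) and higher on WT 24 months than on WT 6 months (1.77 ± 0.33, adjusted p = 0.00633). Unlike Peg3, it had no peak on WT 24 months replicate 2, and KO 24 months tumor and WT 24 months overlapped (-0.36, 95% confidence interval -1.09 to 0.37). The dim probe sets 1438588_at and 1450533_a_at had group means of 3.67 to 4.96 and passed in no comparison.

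Mest and Cdkn1c, each read by a single probe set, moved less. Mest, a paternally expressed gene with the fold of a hydrolase, had log2 intensities of 5.57, 5.80 and 5.81 on KO 24 months tumor, 5.71, 5.99 and 6.23 on KO 6 months, 5.42, 5.18 and 6.01 on WT 24 months and 5.19, 4.90 and 5.55 on WT 6 months (1423294_at). It was higher on KO 6 months than on WT 6 months (log2 difference 0.76 ± 0.22, SE, limma adjusted p = 0.0454). This call held in 4 of the 12 repeats that left out 1 array (KO 6 months replicate 1, replicates 2 and 3 of WT 24 months, and WT 6 months replicate 3), and its adjusted p ran between 0.0149 and 0.164. Arrays of the 24-month labels do not enter this difference, only its adjusted p. WT 24 months and WT 6 months overlapped for Mest (0.33, 95% confidence interval -0.16 to 0.81).

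Cdkn1c encodes p57, an inhibitor of cyclin-dependent kinases that restrains fetal growth. On 1417649_at it had log2 intensities of 6.51, 6.33 and 6.28 on KO 24 months tumor, 6.38, 6.20 and 6.52 on KO 6 months, 6.60, 7.12 and 5.88 on WT 24 months and 5.95, 5.90 and 5.62 on WT 6 months. The arrays labelled WT 6 months were below both KO labels and overlapped with WT 24 months through its replicate 3. The log2 differences of 0.54 ± 0.24 (KO 6 months minus WT 6 months, limma adjusted p = 0.182) and 0.71 ± 0.24 (WT 24 months minus WT 6 months, adjusted p = 0.104) did not pass. Without WT 24 months replicate 3 they were both called (adjusted p = 0.0360 and 0.00292). That array is not part of the first of these differences and bears only on its adjusted p. Among the 6 CDK inhibitors measured beside Cdkn1c, 2 were lower on KO 6 months than on WT 6 months, Cdkn2c (p18; -2.34, adjusted p = 4.14e-05) and Cdkn1a (p21; -2.29, adjusted p = 0.0148), and Cdkn2c was also lower on WT 24 months than on WT 6 months (-2.17, adjusted p = 8.29e-05). These are 33.3% and 16.7% of the list, against 15.6% and 11.8% of all 18193 genes, each read by its brightest probe set.

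**Figure D3:**
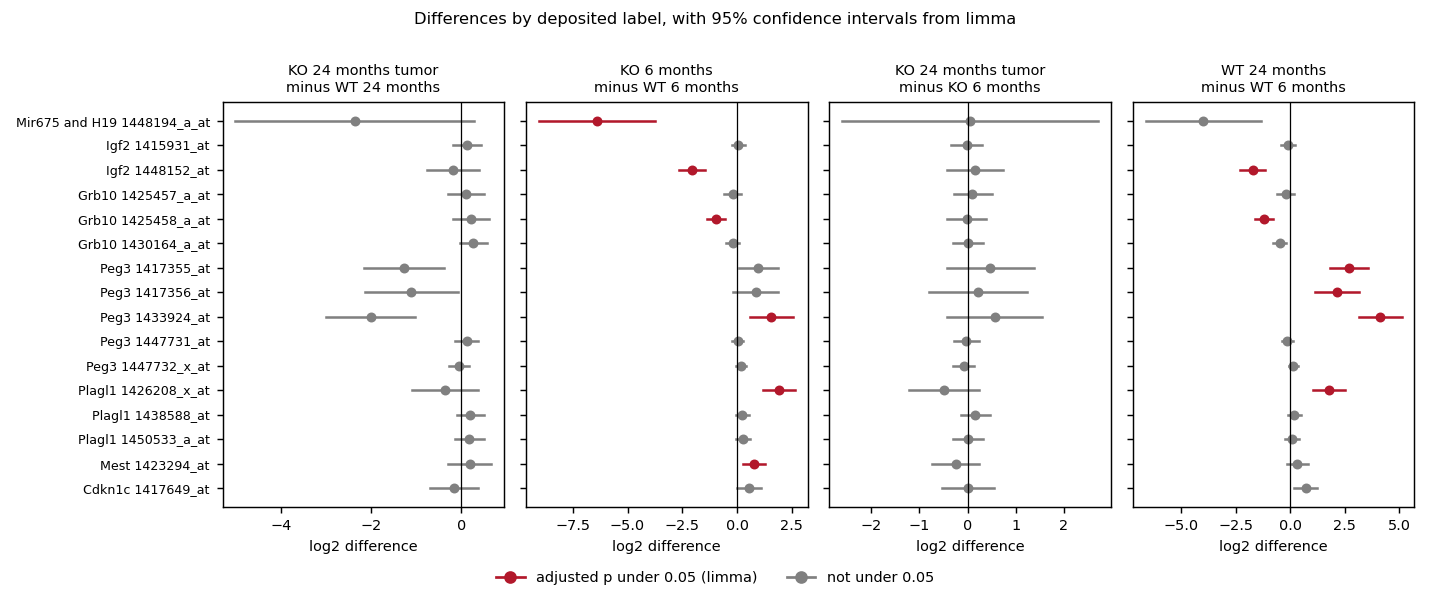
Log2 differences of the 15 probe sets and of the Mir675 and H19 probe set, with 95% confidence intervals from limma, in 4 comparisons by deposited label. Each panel has its own scale. Red marks an adjusted p under 0.05 over all probe sets: 5 and 6 of the 15 in the panels with WT 6 months, and 0 in the other panels.

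Whether the age difference depended on genotype was tested as an interaction, the difference of KO 24 months tumor minus KO 6 months and WT 24 months minus WT 6 months. By label only KO 24 months is tumor, so tumor and a dependence of age on genotype cannot be told apart in it. It has the same value if arrays labelled KO 24 months tumor and arrays labelled WT 6 months trade places. Of the 15 probe sets 4 passed, 2 positive and 2 negative, against 3.15% of all probe sets (1.73% positive and 1.42% negative). The interaction was positive for Igf2 (1.86 ± 0.38, SE, limma adjusted p = 0.0204) and Grb10 (1.18 ± 0.26, adjusted p = 0.0311) and negative for Peg3 1433924_at (-3.56 ± 0.64, adjusted p = 0.0105) and Plagl1 (-2.26 ± 0.47, adjusted p = 0.0248), on the log2 scale. In the same order, KO 24 months tumor minus KO 6 months was 0.15, -0.02, 0.57 and -0.49, none of them called. That of Peg3 held in all 12 repeats with an array left out, and was -2.87 without WT 24 months replicate 2. Igf2 lost the call without any 1 array labelled KO 24 months tumor and without KO 6 months replicate 1 or 3 (highest adjusted p = 0.0575), and Plagl1 without replicate 2 or 3 of either KO label (highest adjusted p = 0.0719). Grb10 kept it in 2 of the 12 repeats, those without WT 24 months replicate 3 or WT 6 months replicate 1 (highest adjusted p = 0.0900). For Mir675 and H19 the interaction of 4.04 ± 1.71 did not pass (adjusted p = 0.296) and passed without WT 24 months replicate 2 (5.80, adjusted p = 0.00887).

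The other genes of the IGF system, the ligand, receptors, binding proteins and their substrates among which Igf2 and Grb10 act, were taken from a list of 17 genes that left out the members. Of these 16 were measured, each by its brightest probe set. In KO 6 months against WT 6 months 6 were higher and 3 lower, and in WT 24 months against WT 6 months 6 were higher and 2 lower, with list medians of 0.07 and 0.15 on the log2 scale beside 0.05 and 0.01 over all genes. The 9 and 8 genes that passed were 56.2% and 50% of the list, against 15.6% and 11.8% of all genes. Igf1, the growth hormone-dependent ligand of adult liver, had log2 intensities of 13.26, 13.25 and 13.22 on KO 24 months tumor, 13.23, 13.31 and 13.33 on KO 6 months, 13.10, 13.15 and 13.05 on WT 24 months and 11.90, 11.56 and 11.81 on WT 6 months. It was thus lower on WT 6 months, where Igf2 was higher (log2 differences of 1.53, adjusted p = 3.07e-06, for KO 6 months minus WT 6 months and 1.34, adjusted p = 8.94e-06, for WT 24 months minus WT 6 months). Igfbp2, a secreted binding protein that holds IGF ligands, had log2 differences of 4.42 (adjusted p = 1.71e-06) and 3.78 (adjusted p = 6.22e-06) in the same comparisons, and Igfbp3, which carries most of the IGF in blood, of 3.19 (adjusted p = 4.59e-05) and 2.41 (adjusted p = 4.14e-04).

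Igf2r, itself imprinted and expressed from the maternal copy in mice, binds IGF2 and delivers it to lysosomes. Its log2 intensities were 8.91, 8.99 and 8.96 on KO 24 months tumor, 8.77, 8.70 and 8.60 on KO 6 months, 8.42, 8.27 and 8.71 on WT 24 months and 9.93, 9.69 and 9.66 on WT 6 months. It was lower on KO 6 months than on WT 6 months (-1.07, limma adjusted p = 1.97e-04) and on WT 24 months than on WT 6 months (-1.29, adjusted p = 5.38e-05). In KO 24 months tumor against WT 24 months Igfbp1, a binding protein of liver that follows fasting and stress, was the only gene of the list to pass (log2 difference -4.01, adjusted p = 0.0151). Its arrays had 10.14, 8.67 and 8.08 on KO 24 months tumor and 12.09, 13.51 and 13.31 on WT 24 months.

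Further imprinted genes outside the Dlk1-Dio3 locus did not move together. Of the 41 measured, 5 were higher and 5 lower on KO 6 months than on WT 6 months (median 0.03, over all genes 0.05), and 3 were higher and 5 lower on WT 24 months than on WT 6 months (median -0.05, over all genes 0.01). These 24.4% and 19.5% of the list stand beside 15.6% and 11.8% of all genes. Airn, the non-coding RNA expressed from the paternal copy that silences Igf2r in cis, had log2 intensities of 6.77, 6.86 and 6.64 on KO 24 months tumor, 6.83, 6.65 and 6.33 on KO 6 months, 6.41, 6.89 and 6.70 on WT 24 months and 9.73, 10.29 and 9.47 on WT 6 months. Both Airn and Igf2r were therefore highest on WT 6 months, where Airn differed by -3.23 (KO 6 months minus WT 6 months, limma adjusted p = 2.43e-06) and -3.16 (WT 24 months minus WT 6 months, adjusted p = 3.10e-06). Dcn, which encodes the matrix proteoglycan decorin and is imprinted in mouse placenta, ran the other way (2.97, adjusted p = 7.72e-05, and 3.04, adjusted p = 7.32e-05). Sgce, which encodes epsilon-sarcoglycan, was also higher in both (1.14, adjusted p = 4.47e-04, and 0.67, adjusted p = 0.0139).

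In the Dlk1-Dio3 locus 3 of the 4 genes measured, all non-coding RNAs expressed from the maternal copy, were lower in both comparisons: Meg3 (-4.03, adjusted p = 8.41e-06, for KO 6 months minus WT 6 months and -4.11, adjusted p = 8.89e-06, for WT 24 months minus WT 6 months), Rian (-4.55 and -4.54) and Mirg (-3.19 and -2.81). These 3 share 1 locus and are 75% of the list, against 7.48% and 6.37% of all genes called lower. On WT 24 months replicate 2, where the H19 probe set was at 10.22, Meg3 was at 9.08, against 10.27 and 9.58 on the other 2 arrays of that label. High signal of H19 on that array thus came without high Meg3. Gpc3, an oncofetal proteoglycan, was high there too, at 8.37, against 5.45 and 5.07 on the other 2, and Afp reached 7.62, against 6.20 and 5.85.

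**Figure D4:**
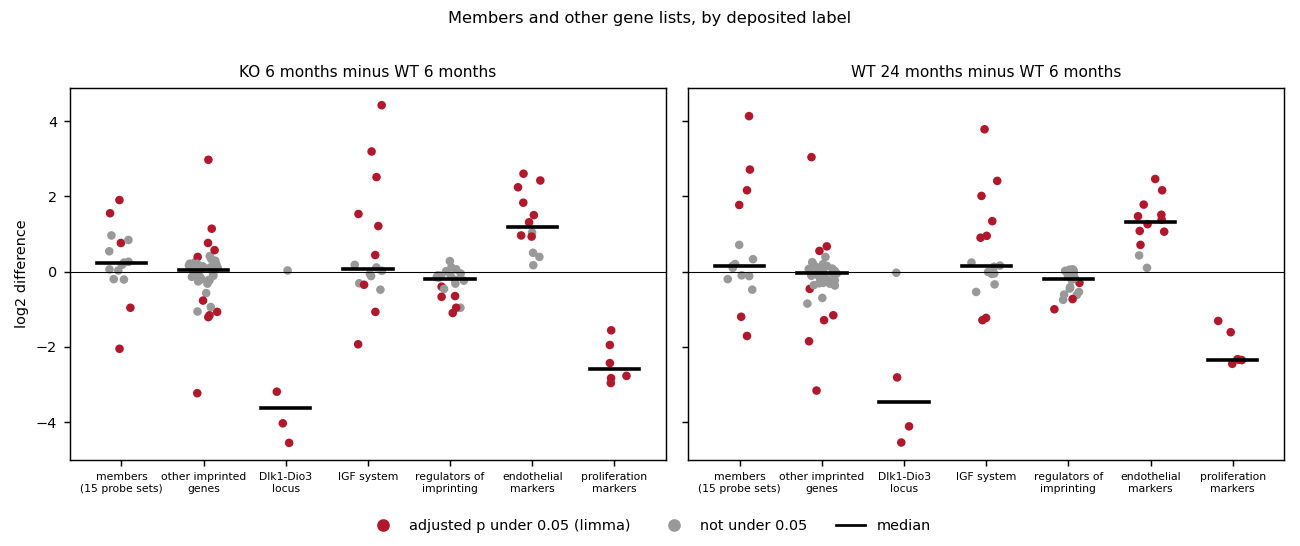
Log2 differences of the 15 probe sets and of the genes of 6 lists (1 probe set per gene), by deposited label, with the list median as a line and adjusted p under 0.05 in red. The members and the other imprinted genes lie on both sides of 0, while the endothelial markers lie above 0 and the proliferation markers below 0 in both comparisons.

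The genes with the most similar profile over the 12 arrays were ranked by the root mean square difference, on the log2 scale and after centering each probe set on its own mean, among 18192 genes (18193 for the probe set of Mir675 and H19). For Igf2 these were Rasl11b (0.27), Elovl6 (0.28), Dab2ip (0.30), Sowahb (0.30) and Nptx1 (0.33). Peg3 on 1433924_at was nearest to Cadm4 (0.71), Orm3 (0.74), Wsb1 (0.81), St3gal5 (0.82) and Smoc2 (0.84), and on both 1417355_at (0.45, 0.47 and 0.48) and 1417356_at (0.28, 0.34 and 0.36) to D630033O11Rik, Cry1 and Adam23. For Mir675 and H19 the nearest were Cpe (0.97), Abcc4 (0.99), Scd2 (1.32), Prom1 (1.50) and Afp (1.53), at larger distances.

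Markers of some other cell types also differed between WT 6 months and the other labels. The mean log2 intensity of 12 endothelial markers was 7.87 to 7.97 on KO 24 months tumor, 7.98 to 8.14 on KO 6 months, 7.46 to 8.60 on WT 24 months and 6.31 to 6.97 on WT 6 months, lowest where Peg3, Plagl1, Mest and Cdkn1c had their lowest means. Of them 8 were higher on KO 6 months and 10 on WT 24 months, each against WT 6 months (15.6% and 11.8% of all genes passed in either direction). Of 10 markers of stellate cells and fibroblasts 5 were higher in each of these comparisons, with means of 7.13 to 7.23 on KO 24 months tumor, 7.32 to 7.64 on KO 6 months, 6.93 to 7.46 on WT 24 months and 6.08 to 6.71 on WT 6 months. The 6 proliferation markers averaged 4.73 to 4.86 on KO 24 months tumor, 4.73 to 4.90 on KO 6 months, 4.61 to 6.00 on WT 24 months and 6.95 to 7.53 on WT 6 months, highest where H19, Igf2 and Grb10 were highest, and all 6 were lower on KO 6 months and on WT 24 months than on WT 6 months. On WT 24 months replicate 3 the 9 markers of Kupffer cells and macrophages averaged 11.97, against 8.32 and 9.34 on the other 2 arrays of that label. Of these 9, 0 passed for KO 6 months and 1 for WT 24 months, each against WT 6 months. For 5 biliary markers the counts were 1 and 0, and for 6 lymphocyte markers 1 and 0. The part of these in the values of the members was not tested. In bulk liver RNA, fewer cells of a type and less RNA per cell cannot be told apart.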

How the data were processed

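The authors extracted total RNA, hybridized it to the arrays and normalized the scans by RMA, and deposited log2 intensities of 45101 probe sets. RMA corrects the background, sets all arrays to the same quantiles and summarizes probes on the log2 scale, so it removes any difference in total RNA between arrays. Array medians lay between 5.41 and 5.45. The version of RMA is not given in the sources used here, and the precision is limited by 3 arrays per label.

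Gene symbols came from the platform annotation, in which 34958 probe sets name 1 gene, 932 several and 9211 none. After removal of 64 control probe sets, the other 45037 were fitted with limma 3.58.1 in R 4.3.3 as 4 group means over 12 arrays. All labels share an estimate of the spread, so leaving out an array can change a call between labels that do not hold it. The spread was not equal between labels. On KO-labelled arrays 0.180% to 0.426% of probe sets lay over 1 log2 from the mean of the other 2 arrays of the label. On WT-labelled arrays 1.30% to 3.92% did. Calls were made at a Benjamini-Hochberg adjusted p under 0.05, without a fold. The study tested with SAM, for which limma was used here. SE and confidence intervals come from limma and SD from the 3 arrays of a label. The procedure was checked on simulated data.

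The 7 genes, the lists and the comparison of WT 6 months with the 3 other groups were chosen with earlier results of these data known. All probe sets of the 7 genes are named, with Iqgap2 and Afp as checks of the labels. Of each list up to 4 genes with the smallest adjusted p in a comparison are named, and all that passed where these were 5 or fewer. Mir675 and H19, Usp29, Gpc3, Cps1, Apoc3, and the Meg3 and Afp values of single arrays were singled out after their values were seen. Lists used the probe set of each gene with the highest mean. Sequences are from RefSeq (GRCm38.p6). The labels call the samples biological replicates, 1 mouse each.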

Additional observations from a re-analysis of the deposited data

Results flagged for a closer look

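Differences between 24 and 6 months that were not the same on arrays labelled KO and WT were found by the interaction test for 4 of the 15 probe sets, against 3.15% of all probe sets. Both labels in doubt enter this test. The log2 interaction was 1.86 for Igf2 (1448152_at) and 1.18 for Grb10 (1425458_a_at). It was -3.56 for Peg3 (1433924_at) and -2.26 for Plagl1 (1426208_x_at). With 1 array left out, the call held in all 12 repeats for Peg3, in 8 for Plagl1, in 7 for Igf2 and in 2 for Grb10. By label only the KO arrays at 24 months are tumor, which this test cannot tell apart from age and genotype. Each label holds 3 arrays, so single arrays were not tested as outliers.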

How the results depend on the processing

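All 688 values of single differences under the alternatives kept their direction, and 58 lost and 32 gained the call. Many of these alternatives leave the difference itself unchanged, so its direction there was fixed in advance. They change only the spread, the adjustment or the threshold, or leave out an array of a label not compared. Only differences called in some setting were followed. With only the groups compared, 8 of the 15 probe sets passed between KO 6 months and WT 6 months (12.6% of all probe sets), and with a fold of 3 added 2 did (1.79%). With only the groups compared, Peg3 1417356_at and Plagl1 1426208_x_at lost the call between WT 24 months and WT 6 months (adjusted p = 0.126 and 0.0840). Centering on housekeeping genes gave 1 call between KO 24 months tumor and WT 24 months (0.979% of all probe sets; Peg3 1433924_at, -1.97, adjusted p = 0.00430) and a call for Mir675 and H19 between WT 24 months and WT 6 months (-4.10). That reference was the mean of 3 genes, Gusb, Hprt and Actb, of which 2 were themselves called in WT 6 months against the rest. Within WT 24 months this mean ran from 10.73 to 11.42, so the reference was not stable. When KO 24 months tumor and WT 6 months, the labels in doubt, traded places, the counts were 6 for KO 24 months tumor against WT 24 months (8.76% of all probe sets), 0 for KO 6 months against WT 6 months (0.0200%), 5 for KO 24 months tumor against KO 6 months (12.1%) and 0 for WT 24 months against WT 6 months (0.238%). Leaving out single arrays gave 3 to 7 calls for KO 6 months against WT 6 months (7.46% to 14.3% of all probe sets), 0 to 1 for KO 24 months tumor against WT 24 months (0.0200% to 2.61%), 0 in each case for KO 24 months tumor against KO 6 months (0.00666% to 0.0400%), 6 to 7 for WT 24 months against WT 6 months (6.73% to 8.87%), 1 to 7 for the interaction (1.97% to 3.96%) and 5 to 8 for WT 6 months against the rest (10.6% or more). With the replicate number as a block, 4 rather than 5 probe sets passed between KO 6 months and WT 6 months (10.8% of all probe sets), Peg3 1433924_at being lost (adjusted p = 0.0724). In WT 6 months against the rest it ended the call of Peg3 1417356_at (adjusted p = 0.0531) and gave one for Mest (adjusted p = 0.0219), and it changed no other call. Samples with the same number did not deviate together (mean correlation -0.02 over 18 pairs, 0.01 over 36 pairs of different numbers), so the number marks no pairing. The cause was not tested for any of these changes. Of the 15 probe sets 7 had all group means below the median of the table, where a change in expression may not be seen.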

Other observations

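Of 20 regulators of imprinted expression measured, 5 were lower on KO 6 months than on WT 6 months and 0 higher in limma (25%, against 15.6% of all genes called in either direction). These were Tet2, a DNA demethylase (log2 difference -1.10, adjusted p = 0.00366), Ezh2, the H3K27 methyltransferase (-0.96, adjusted p = 0.00416), Trim28, the corepressor that holds methylation at imprinted loci (-0.40, adjusted p = 0.00995), Arid4a (-0.65, adjusted p = 0.0454) and Smchd1 (-0.67, adjusted p = 0.0488). On WT 24 months against WT 6 months 3 were lower, Ezh2 (adjusted p = 0.00380), Tet2 (-0.73, adjusted p = 0.0394) and Trim28 (-0.30, adjusted p = 0.0474), and without WT 24 months replicate 2, a setting chosen after seeing the data, 2 were. The 3 are 15% of the list, near the 11.8% of all genes. Of 9 genes of fetal liver that are silenced after birth, Afp (-6.04, adjusted p = 3.54e-06), Lpl (-2.74, adjusted p = 0.0277) and Igf2bp3 (-0.35, adjusted p = 0.0393) were lower on KO 6 months than on WT 6 months and Sall4 was higher (0.60, adjusted p = 0.00767), 44.4% of that list. Sall4 was dim, with group means of 4.28 to 4.89, below the median of all values (5.43). On WT 24 months against WT 6 months 2 of the 9 were lower and 0 higher (22.2%, against 11.8% of all genes). Close relatives of the members passed in 0 of 6 cases in both comparisons.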
